A study of Mus musculus with 8 samples.

Results

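The genes described here carry the response to interferon gamma and the presentation of antigen, in liver of mice with colitis. The set is a list of 34 gene names, and the rule that defines it uses no measured value. Of the 34, 30 had a row of their own among the 22180 genes that could be named alone on the array, and a gene with several rows was represented by its brightest row on average. They fall into 9 genes of the MHC class I pathway, 6 of the MHC class II pathway, 9 interferon-inducible GTPases and 6 receptors, transcription factors and feedback genes. The other 4 members, Cd74, H2-D1, Ifi47 and Gbp2, were read only by rows that name a second gene as well, and are given with that partner.

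RNA of liver pieces was hybridised to Affymetrix Mouse Gene 2.0 ST arrays, 4 from wild-type mice and 4 labelled IL-10 knockout, a mouse without the cytokine interleukin-10, which dampens macrophage activation. Every mouse, in both groups, was labelled C57BL/6, female and 6 weeks old, and drank 3% dextran sulfate sodium (DSS), which injures the colon lining and causes colitis, over 7 days. No mouse without DSS belongs to the comparison, which is therefore between genotypes under colitis. The sources used here do not describe the Il10 allele. The design counts 4 mice per genotype but ties no array to an animal, so a p-value speaks of the spread among these arrays. Values are log2 levels, so that a difference of 1 is a doubling, and a mean is given with its SD (n = 4 arrays in each group). Where 4 values follow each other they are those of replicates 1 to 4, wild-type first. Differences are arrays labelled knockout minus wild-type, and "called" means an adjusted p below 0.05 from limma, a linear model fitted across all 22180 genes.

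Interferon gamma is made mainly by T cells and NK cells. It binds a receptor of the chains Ifngr1 and Ifngr2. Promoters of responding genes often hold the gamma-activated site, and the induced factor Irf1 acts through a second motif, the interferon-stimulated response element. Class II transcription depends on the coactivator Ciita, class I transcription partly on its relative Nlrc5. Class I molecules show peptides of a cell's own proteins to CD8 T cells on nearly all cells. Class II molecules show peptides of engulfed material to CD4 T cells, and in liver are carried mostly by Kupffer cells (the resident macrophages), dendritic cells and B cells. The Gbp and effector GTPases attack the vacuoles of intracellular microbes, while the Irgm GTPases are of a regulatory kind that sits on the cell's own membranes.

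Some features of the arrays touch all results. Il10 read higher under the knockout label (difference 1.00, SE 0.14; limma adjusted p = 0.00851), so it does not check the labels, and directions rest on the labels alone. Although every label says female, replicates 1 and 2 of both groups had signal of the Y-linked genes Eif2s3y, Kdm5d and Uty and low Xist, and replicates 3 and 4 of both groups the reverse. These sets hold 2 arrays per genotype each, and values within them are given below as those of the arrays with Y-linked or with Xist signal. Labelled-knockout replicate 3 was the lowest of the 8 arrays for 18.7% of all genes, but for 13 of the 30 members and for 19 of 22 type I interferon-stimulated genes. Class medians, counts of members and many single genes are therefore given with and without it, and most other values only with it. This array was singled out by values of these same genes, so leaving it out favours higher differences. Calls made without it are descriptions and no independent support. Hepatocyte markers, which define the labelled tissue, had a mean level between 12.95 and 13.13 in all arrays. Over all genes 3.15% were called, 347 higher and 352 lower.

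Promoter sequences of some class II genes, GTPases and factor and feedback genes are shown first. Whether their motifs bear on the array values was not tested. RefSeq promoter windows (assembly GRCm38.p6, 250 bases before to 50 after the transcript start) were at hand for 25 of the 34 genes. They were searched on both strands for the gamma-activated site (TTCNNNGAA, the same on either strand), the interferon-stimulated response element (GAAA, any 2 bases, GAAA) and the CCAAT box (CCAAT), the motif of the Y box of class II promoters. Below, 180 bases before the start are printed 5′ to 3′ on the gene's strand, and capitals mark the matches of any of the 3 motifs.
H2-Aa (chr17:34287824-34288003, minus strand): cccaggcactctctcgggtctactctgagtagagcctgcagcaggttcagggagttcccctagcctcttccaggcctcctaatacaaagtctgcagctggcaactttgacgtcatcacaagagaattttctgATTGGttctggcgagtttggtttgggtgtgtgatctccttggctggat
H2-Eb1 (chr17:34305687-34305866, plus strand): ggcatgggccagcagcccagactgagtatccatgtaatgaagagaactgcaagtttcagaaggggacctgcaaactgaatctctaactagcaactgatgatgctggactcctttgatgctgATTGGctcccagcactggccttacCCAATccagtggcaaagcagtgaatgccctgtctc
Irgm2 (chr11:58214797-58214976, plus strand): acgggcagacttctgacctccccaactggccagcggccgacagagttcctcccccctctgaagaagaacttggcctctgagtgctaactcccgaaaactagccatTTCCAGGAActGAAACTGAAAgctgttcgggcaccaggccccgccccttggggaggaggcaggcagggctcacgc
Igtp (chr11:58199376-58199555, plus strand): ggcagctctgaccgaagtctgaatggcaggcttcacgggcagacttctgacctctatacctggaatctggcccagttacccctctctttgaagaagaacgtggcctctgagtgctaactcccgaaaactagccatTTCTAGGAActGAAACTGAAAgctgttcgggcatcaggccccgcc
Irgm1 (chr11:48871421-48871600, minus strand): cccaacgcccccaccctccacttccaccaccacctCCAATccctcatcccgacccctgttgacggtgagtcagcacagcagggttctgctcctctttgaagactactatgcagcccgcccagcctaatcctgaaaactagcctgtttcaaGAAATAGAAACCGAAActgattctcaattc
Gbp7 (chr3:142530156-142530335, plus strand): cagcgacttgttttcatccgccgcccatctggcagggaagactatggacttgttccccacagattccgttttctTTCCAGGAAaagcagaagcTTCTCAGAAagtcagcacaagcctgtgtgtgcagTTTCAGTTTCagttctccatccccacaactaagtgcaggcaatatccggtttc
Gbp5 (chr3:142496754-142496933, plus strand): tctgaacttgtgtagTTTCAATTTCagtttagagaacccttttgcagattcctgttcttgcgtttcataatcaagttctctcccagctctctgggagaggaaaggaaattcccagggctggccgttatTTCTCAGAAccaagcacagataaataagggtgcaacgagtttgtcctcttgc
Irf1 (chr11:53769834-53770013, plus strand): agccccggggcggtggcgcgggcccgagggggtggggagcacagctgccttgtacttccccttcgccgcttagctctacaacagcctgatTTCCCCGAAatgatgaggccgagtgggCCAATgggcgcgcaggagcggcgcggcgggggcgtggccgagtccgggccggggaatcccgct
Socs1 (chr16:10785537-10785716, minus strand): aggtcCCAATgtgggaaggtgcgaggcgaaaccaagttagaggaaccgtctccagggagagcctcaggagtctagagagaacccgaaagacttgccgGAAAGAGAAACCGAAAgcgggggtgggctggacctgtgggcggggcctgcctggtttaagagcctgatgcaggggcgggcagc

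Among the GTPases, 7 of the 8 genes with a window held the interferon-stimulated response element, against 3.99% of the 27025 genes with a window. The gamma-activated site was in 4 of the 8, against 9.55% of genes, and both motifs stood together in Gbp5, Gbp7, Igtp and Irgm2, against 0.54% of genes. In Igtp and Irgm2, neighbours on chromosome 11, the gamma-activated site and the response element lie side by side in the same order. In Irgm1 and Socs1 a pair of overlapping response elements prints as 1 run of capitals. Of the class II genes, H2-Aa, H2-Eb1, H2-DMa and H2-DMb1 had a window: all 4 held a CCAAT box, against 41.1% of genes, and neither interferon motif was found in these windows. Of the 8 class I pathway genes with a window, Psmb8 held the gamma-activated site and B2m the response element, and 6 held a CCAAT box. All 5 receptors, factors and feedback genes with a window held a CCAAT box too, so the box is not particular to class II. Of these 5, 2 held the gamma-activated site (Irf1 and Irf8) and 1 the response element (Socs1). A match is a run of letters and was not tested as a binding site.

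None of the 30 members was called by limma over all 8 arrays, where 3.15% of all genes were. At an unadjusted p under 0.05, 7 of the 30 lay in the higher direction and none in the lower; of all genes 21.2% lay under that level, 11.4% in the higher direction. The 7 were H2-Aa, H2-Eb1, H2-DMa and Ciita of the class II pathway, the GTPase Gbp5, the feedback inhibitor Socs1 and the transcription factor Irf8. Differences were above 0 for 23 of 30 members, against 56% of all genes. The classes differed in size: the median difference was 0.54 for class II, 0.15 for receptors, factors and feedback genes, 0.10 for class I and 0.04 for GTPases, beside 0.03 for all genes. These medians are descriptions without a test.

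**Figure D1:**
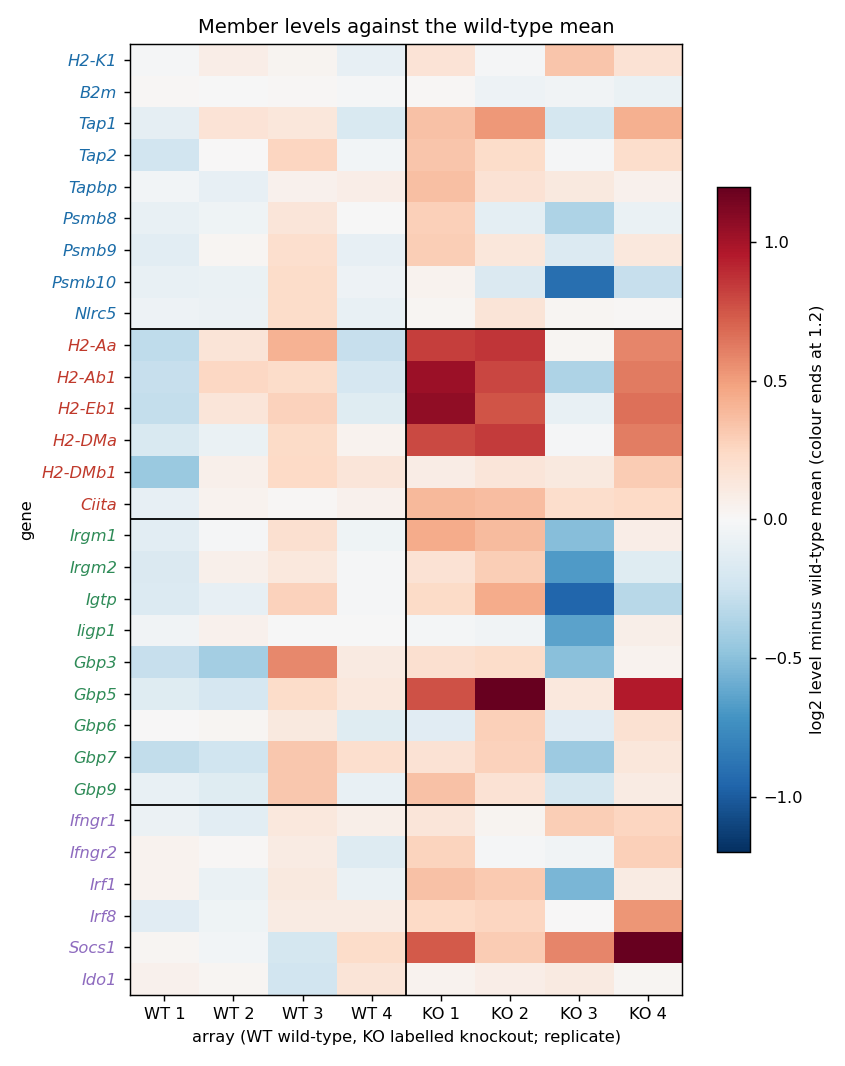
Level of each of the 30 members in each array, as log2 level minus that gene's wild-type mean (colour, cut at 1.2); rows are genes by class, columns are arrays (WT wild-type, KO labelled knockout, with replicate number). The class II rows are red in labelled-knockout replicates 1, 2 and 4 and pale or blue for most genes in replicate 3, where most GTPase rows are blue.

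The class II genes gave the largest class median, carried by labelled-knockout replicates 1, 2 and 4. In these 3 arrays H2-Aa, H2-Ab1, H2-Eb1, H2-DMa and Ciita were above all 4 wild-type arrays, 5 of 6 class II genes against 9.26% of all genes. The 3 arrays were picked after these values were seen, so the count is a description. It is not particular to class II: the same held for all 12 Kupffer cell and macrophage markers and 11 of 14 neutrophil markers. In labelled-knockout replicate 3, H2-Aa, H2-Eb1 and H2-DMa lay within the wild-type range and H2-Ab1 below it. All 6 differences were above 0, and stayed above 0 in every alternative computed, including each array set alone.

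H2-Aa and H2-Ab1 encode the alpha and beta chain of the class II molecule I-A, and H2-Eb1 the beta chain of I-E, which C57BL/6 mice transcribe but do not assemble, as they lack its alpha chain. H2-Aa read 8.25, 8.71, 8.97 and 8.28 in the wild-type arrays, and 9.38, 9.41, 8.58 and 9.14 in labelled-knockout replicates 1 to 4. H2-Ab1 read 9.75, 10.28, 10.25 and 9.83 against 11.05, 10.83, 9.66 and 10.65. H2-Eb1 read 8.70, 9.13, 9.26 and 8.84 against 10.05, 9.74, 8.89 and 9.64. In each of the 3 genes the groups overlapped through labelled-knockout replicate 3 alone, and for H2-Ab1 that array was the lowest of the 8. The means of H2-Aa were 8.55 ± 0.35 and 9.13 ± 0.39 (SD, n = 4 each), a difference of 0.57 (SE 0.21, 1.49-fold; limma adjusted p = 0.157). For H2-Ab1 the difference was 0.52 (SE 0.27; limma adjusted p = 0.295) and for H2-Eb1 0.60 (SE 0.22; limma adjusted p = 0.162). Without labelled-knockout replicate 3, H2-Ab1 and H2-Eb1 were called, with differences of 0.82 (SE 0.15; limma adjusted p = 0.0302) and 0.83 (SE 0.15; limma adjusted p = 0.0271), and H2-Aa missed the threshold at 0.76 (limma adjusted p = 0.0568).

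H2-DMa and H2-DMb1 encode the chains of H2-M, which loads peptide onto class II molecules, and Cd74 the invariant chain that escorts them. H2-DMa read 8.08, 8.18, 8.49 and 8.30 in wild-type and 9.05, 9.10, 8.25 and 8.88 in labelled-knockout replicates 1 to 4. Its difference was 0.56 (SE 0.18, 1.47-fold; limma adjusted p = 0.114), and without labelled-knockout replicate 3 it was 0.75 (SE 0.11, 1.68-fold; limma adjusted p = 0.0115) and called. H2-DMb1 read 4.76, 5.27, 5.44 and 5.35 against 5.29, 5.35, 5.32 and 5.51. Its levels lay below the array medians of 6.09 to 6.22, the groups overlapped, and the difference of 0.17 had a 95% interval from -0.14 to 0.47. The row shared by Cd74 and Mir5107 read 10.55, 10.95, 11.01 and 10.69 against 11.51, 11.45, 10.81 and 11.38. It repeated the pattern of the I-A and I-E chains, with labelled-knockout replicates 1, 2 and 4 above all wild-type arrays and replicate 3 among them. The difference was 0.48 (SE 0.17; limma adjusted p = 0.194 over all 41345 rows, of which 0.803% were called).

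Ciita, the coactivator on which class II transcription depends, showed the smaller but steadier difference. It read 7.20, 7.34, 7.31 and 7.35 in the wild-type arrays, and 7.69, 7.67, 7.51 and 7.54 in labelled-knockout replicates 1 to 4. All 4 labelled-knockout arrays, replicate 3 included, were above all wild-type arrays, as in 7.2% of all genes. Its means of 7.30 ± 0.07 and 7.60 ± 0.09 (SD, n = 4 each) gave a difference of 0.30 (SE 0.07, 1.23-fold; limma adjusted p = 0.0551), which missed the threshold. Without labelled-knockout replicate 3 the difference was 0.33 (limma adjusted p = 0.0526). Ciita was called by limma in 4 of 20 alternatives. These were cyclic loess, quantile normalization, array weights and a filter on low genes, with adjusted p between 0.0375 and 0.0478. In the others it was not called, with a limma adjusted p of up to 0.44 in arrays with Xist signal alone.

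**Figure D2:**
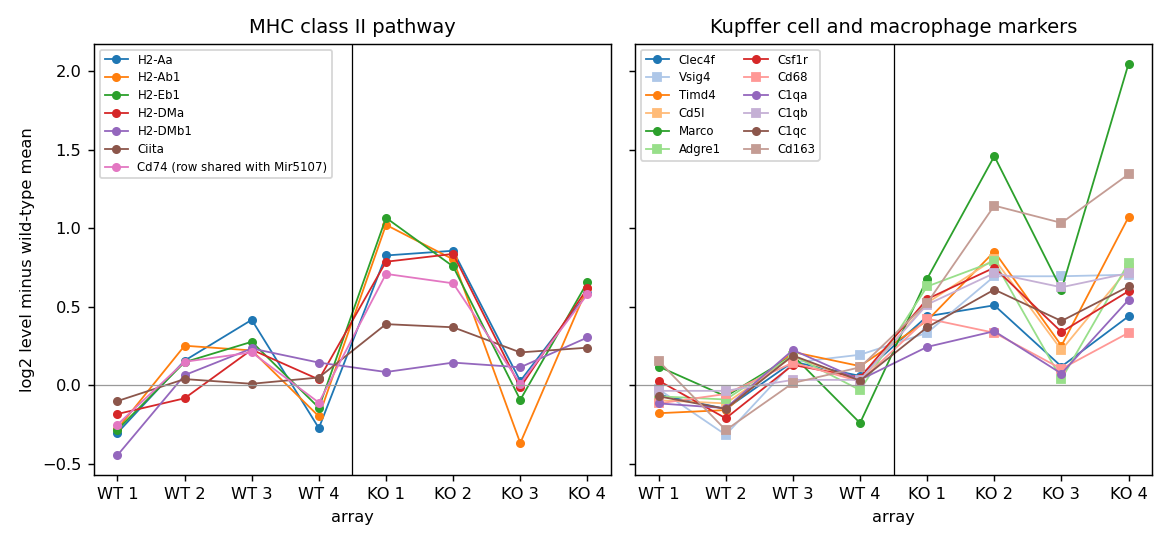
Log2 level minus the wild-type mean of each gene in each array, for the class II pathway (left, with the row shared by Cd74 and Mir5107) and for the 12 Kupffer cell and macrophage markers (right); lines only join the values of 1 gene. Labelled-knockout replicate 3 lies near the wild-type mean for most class II genes, while all 12 markers lie above their wild-type mean there.

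Further genes of the class II route were higher in every labelled-knockout array. Of 13 measured genes of a wider class II list, 3 rose and none fell, against 1.56% called higher among all genes, and the list median was 0.19. They were Ifi30, a reductase that opens disulfides of antigens, Ctss, the protease that trims the invariant chain, and Lgmn, a lysosomal protease. Ifi30 read 9.67, 9.55, 10.01 and 9.73 in wild-type and 10.74, 10.81, 10.31 and 10.99 in labelled-knockout replicates 1 to 4, a difference of 0.97 (SE 0.15; limma adjusted p = 0.0112). Ctss read 9.13, 9.09, 9.37 and 9.39 against 9.84, 10.08, 9.74 and 10.09, a difference of 0.69 (SE 0.11; limma adjusted p = 0.0134). Lgmn differed by 0.42 (SE 0.08; limma adjusted p = 0.0249). In all 3 the groups did not overlap, as in 12.9% of all genes. Ifi30 and Ctss stayed called with any array left out, while Lgmn lost the call without wild-type replicates 1, 2 or 4 or labelled-knockout replicates 2 or 4 (limma adjusted p = 0.0521 to 0.0792). These proteases and the reductase act in lysosomes of macrophages generally, and are not limited to class II presentation.

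Markers of the cells that carry class II moved with these genes in part. Of 12 Kupffer cell and macrophage markers, 6 rose and none fell, against 1.56% called higher among all genes. All 12 were higher at an unadjusted p under 0.05, against 11.4% of all genes. The mean level of the markers was 9.29 to 9.59 in wild-type and 9.82 to 10.27 in labelled-knockout arrays, with a median difference of 0.57. Without labelled-knockout replicate 3, 9 rose, against 1.49% of all genes, and the median was 0.64. C1qb, a complement chain made by Kupffer cells, rose by 0.64 (limma adjusted p = 0.00587), the scavenger receptor Cd163 by 1.01 (limma adjusted p = 0.0148) and the growth factor receptor Csf1r by 0.56 (limma adjusted p = 0.0235; not called without wild-type replicates 1 or 2 or labelled-knockout replicate 4, where it was 0.062 to 0.0721). Per array, the median deviation of the macrophage markers was 0.48, 0.73, 0.30 and 0.71 in labelled-knockout replicates 1 to 4, where that of the class II genes was 0.81, 0.78, 0.00 and 0.60. Replicate 3 was thus the lowest of the group for both, above the wild-type arrays for the markers and among them for class II.

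Most neutrophil markers were higher too. Of 14, 10 rose and 1 fell (Prtn3, named after its values were seen), against 1.56% and 1.59% of all genes. The median difference was 0.83, with mean levels of 6.37 to 6.73 in wild-type and 7.14 to 7.70 in labelled-knockout arrays. Ngp, a granule protein, rose by 2.42 (limma adjusted p = 0.00851), the collagenase Mmp8 by 2.16 (limma adjusted p = 0.00815) and the chemokine receptor Cxcr2 by 0.86 (limma adjusted p = 0.00815). Labelled-knockout replicate 3 was not low here: the median deviations of the list were 0.68, 0.54, 1.00 and 0.96 in that group. Without it 8 rose, against 1.49% of all genes, and the median was 0.75.

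The remaining marker lists gave smaller counts. Among all genes 1.56% were called higher and 1.59% lower, and 21.2% lay at an unadjusted p under 0.05. Of 8 dendritic cell markers 1 rose (Flt3, 0.44; limma adjusted p = 0.0143), while Batf3 differed by 0.31 and Xcr1 by -0.17 (limma adjusted p = 0.086 and 0.434); mean levels were 6.59 to 6.80 against 6.73 to 6.88. None of 7 B and plasma cell markers was called by limma or lay at an unadjusted p under 0.05, with mean levels of 5.77 to 5.94 and 5.72 to 5.90; Jchain differed by -0.17, Cd79a by -0.14 and Pax5 by 0.08. Of 15 T cell and NK cell markers Il2rb (0.67) and Ccl5 (0.52) rose, Cd3e differed by 0.45 (limma adjusted p = 0.13), and mean levels were 5.93 to 6.24 and 6.22 to 6.37. Il2rb and Ccl5 lost the call without any of wild-type replicates 1, 2 or 4 or labelled-knockout replicates 2 or 4 (limma adjusted p = 0.053 to 0.109). Of 8 sinusoidal endothelial markers Lyve1 rose (1.05; limma adjusted p = 0.0066), while Stab1 differed by 0.27 and Fcgr2b by -0.23 (limma adjusted p = 0.168 and 0.148), with mean levels of 9.75 to 10.03 and 9.98 to 10.10. Of 8 hepatocyte markers Tat rose (0.51; limma adjusted p = 0.0247), not called without wild-type replicates 2, 3 or 4 or labelled-knockout replicate 4 (0.055 to 0.0758), while Ttr differed by -0.16 and Hnf4a by 0.17 (limma adjusted p = 0.186 and 0.221). The part of any of these cells in the class II values was not tested, and in bulk tissue fewer cells of a type and less RNA per cell cannot be told apart.

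The GTPases did not share the class II pattern, apart from Gbp5. Their median difference was 0.04, 5 of 9 differences were above 0, and none was called by limma (1 at an unadjusted p under 0.05). In labelled-knockout replicate 3, 7 of the 9 were at their lowest of the 8 arrays, against 18.7% of all genes. The median deviation of the class from wild-type was 0.19, 0.28, -0.49 and 0.09 in labelled-knockout replicates 1 to 4 and between -0.15 and 0.22 in wild-type arrays.

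Irgm1, Irgm2 and Igtp encode immunity-related GTPases of the regulatory kind, which sit on the cell's own membranes. Igtp read 9.02, 9.08, 9.46 and 9.17 in wild-type and 9.41, 9.63, 8.23 and 8.85 in labelled-knockout replicates 1 to 4. Irgm2 read 10.28, 10.51, 10.58 and 10.44 against 10.63, 10.75, 9.77 and 10.31. Irgm1 read 7.60, 7.71, 7.92 and 7.68 against 8.17, 8.11, 7.22 and 7.81. In all 3 the highest array and the lowest array were both labelled knockout: replicate 1 or 2 at the top and replicate 3 at the bottom. The differences were -0.15 for Igtp (95% interval -0.73 to 0.43), -0.09 for Irgm2 (-0.50 to 0.32) and 0.10 for Irgm1 (-0.31 to 0.51), with limma adjusted p of 0.767 to 0.808. Without replicate 3 they were 0.12, 0.11 and 0.30, and none was called. The promoters of these 3 genes, printed above, each hold the response element within the last 64 bases before the start.

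Iigp1, an effector GTPase that loads onto parasite vacuoles, was nearly level in 7 arrays. It read 11.28, 11.37, 11.32 and 11.32 in wild-type and 11.30, 11.28, 10.68 and 11.39 in labelled-knockout replicates 1 to 4. The difference of -0.16 (95% interval -0.46 to 0.15; limma adjusted p = 0.537) came from replicate 3 alone and was 0.00 without it. The row shared by Ifi47, a further immunity-related GTPase, and Olfr56 read 6.35, 6.59, 6.56 and 6.36 against 6.65, 6.51, 5.94 and 6.38, again lowest in labelled-knockout replicate 3 (difference -0.09, limma adjusted p = 0.764 over all rows).

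Among the members that are guanylate-binding proteins, which coat and break microbial vacuoles, Gbp5 stood out. Outside the member list, Gbp2b, Gbp4 and Gbp8, given below, were also above all wild-type arrays in labelled-knockout replicates 1, 2 and 4. Gbp5 read 5.21, 5.16, 5.58 and 5.48 in wild-type and 6.12, 6.58, 5.48 and 6.31 in labelled-knockout replicates 1 to 4. Labelled-knockout replicates 1, 2 and 4 were above all wild-type arrays and replicate 3 was within their range. Its means of 5.36 ± 0.20 and 6.12 ± 0.47 (SD, n = 4 each) gave a difference of 0.76 (SE 0.21, 1.69-fold; limma adjusted p = 0.0759). Without replicate 3 the difference was 0.98 (SE 0.14, 1.97-fold; limma adjusted p = 0.0113), and Gbp5 was called. The wild-type mean lies below the array medians, and the table carries no detection calls, so the fold is uncertain.

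Gbp7 and Gbp3, also on chromosome 3, lacked the high values of Gbp5. Gbp7 read 8.07, 8.13, 8.69 and 8.57 against 8.54, 8.64, 7.93 and 8.50, and Gbp3 6.10, 5.97, 6.96 and 6.49 against 6.57, 6.60, 5.88 and 6.42. Both were highest in wild-type replicate 3 and lowest in labelled-knockout replicate 3, with differences of 0.04 (95% interval -0.36 to 0.44) and -0.01 (-0.51 to 0.49), or 0.20 and 0.15 without the latter array, not called. The row shared by Gbp2 and Gbp2b ran from 7.45 to 8.41 in wild-type and from 7.47 (replicate 3) to 8.50 in labelled-knockout arrays, a difference of 0.32 (95% interval -0.29 to 0.94). On chromosome 5, Gbp9 differed by 0.11 (95% interval -0.20 to 0.41) and Gbp6, whose levels of 3.59 to 4.02 were far below the array medians, by 0.05 (-0.19 to 0.29); without labelled-knockout replicate 3 these were 0.21 and 0.11, not called. The printed stretches of Gbp7 and Gbp5 each hold the response element, that of Gbp7 with 2 gamma-activated sites and that of Gbp5 with 1.

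Of 10 further interferon-inducible GTPases none rose and 2 fell, against 1.59% called lower among all genes. Gbp11 read 7.21, 7.79, 8.16 and 7.57 in wild-type. In labelled-knockout replicates 1 to 4 it read 6.58, 6.46, 5.51 and 6.42, with groups apart as in 12.9% of all genes. Its difference was -1.44 (SE 0.25; limma adjusted p = 0.0198), and -1.19 without labelled-knockout replicate 3 (limma adjusted p = 0.0157). It lost the call without wild-type replicates 2 (limma adjusted p = 0.0629) or 3 (0.057). Mx2, an antiviral GTPase of the dynamin family, fell by 0.56 (SE 0.12; limma adjusted p = 0.0412) and lost the call without any array but labelled-knockout replicate 1 (limma adjusted p = 0.0551 to 0.11). Gbp2b read 6.53, 7.05, 7.22 and 6.80 against 8.10, 8.50, 6.99 and 7.74, a difference of 0.93 (SE 0.28; limma adjusted p = 0.0995), with labelled-knockout replicates 1, 2 and 4 above all wild-type arrays and replicate 3 among them, as for Gbp5.

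Without labelled-knockout replicate 3, 4 of these 10 genes were called higher: Gbp2b (1.21), Gbp4 (1.44), Gbp8 (1.04) and Gm12250 (0.70), the last 3 named after their values were seen; Gbp11 was the 1 called lower. Of all genes 1.49% were then called higher and 1.11% lower. Over all 8 arrays Gbp4, Gbp8 and Gm12250 differed by 1.02, 0.66 and 0.48, not called (limma adjusted p = 0.175, 0.267 and 0.236). Gbp genes on chromosome 5 thus lay in opposite directions: in labelled-knockout replicate 2, Gbp4 read 7.12 against a wild-type mean of 5.20, and Gbp11 6.46 against 7.68. Gbp genes are close copies of each other, and whether a row also reads a neighbour's transcript was not tested.

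**Figure D3:**
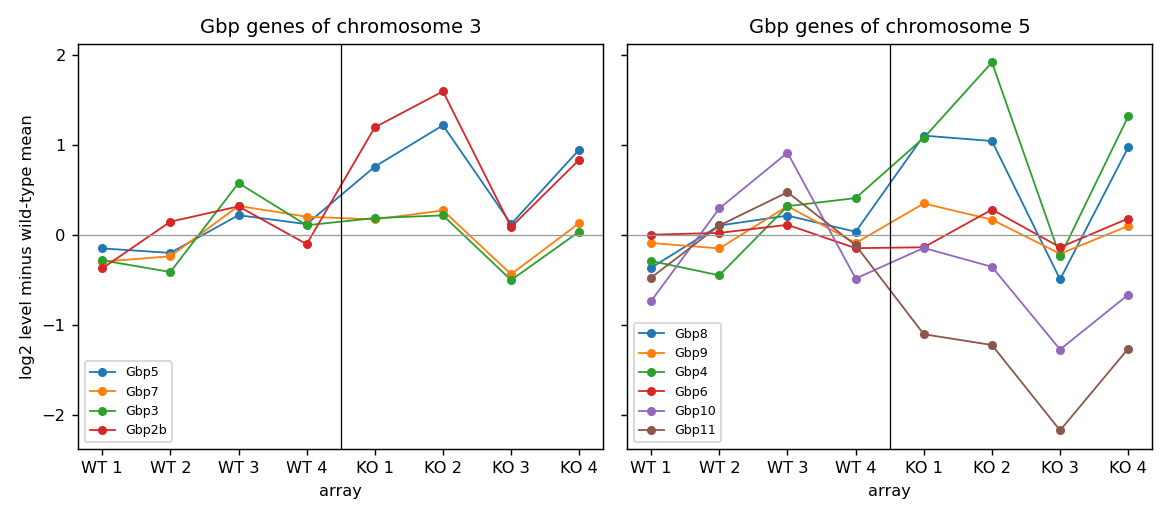
Log2 level minus the wild-type mean in each array for Gbp genes on chromosome 3 (left) and chromosome 5 (right); lines only join the values of 1 gene. Gbp5, Gbp2b, Gbp4 and Gbp8 lie above all wild-type arrays in labelled-knockout replicates 1, 2 and 4, Gbp11 lies below them in all 4, and most genes dip in replicate 3.

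The class I pathway showed small differences in both directions. None of the 9 genes was called by limma, none lay at an unadjusted p under 0.05, and differences ran from -0.33 to 0.27. The class median per array was 0.29, 0.14, -0.04 and 0.06 in labelled-knockout replicates 1 to 4 and between -0.08 and 0.15 in wild-type arrays, so the groups overlapped.

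H2-K1 is a classical class I heavy chain and B2m, beta-2-microglobulin, the light chain of all class I molecules. B2m read 13.48, 13.46, 13.48 and 13.45 in wild-type and 13.48, 13.41, 13.43 and 13.39 in labelled-knockout replicates 1 to 4, a difference of -0.04 (95% interval -0.17 to 0.09) near the top of the arrays' range. H2-K1 read 12.06, 12.15, 12.10 and 11.97 against 12.23, 12.06, 12.40 and 12.24, a difference of 0.17 (95% interval -0.02 to 0.35; limma adjusted p = 0.283), or 0.11 without labelled-knockout replicate 3. Its highest array was labelled-knockout replicate 3, where the GTPases were lowest. The row shared by H2-D1, the second classical heavy chain of these mice, and H2-Q2 read 6.87, 6.76, 6.84 and 6.90 against 7.05, 7.00, 7.19 and 7.03. Here too replicate 3 was the highest, and the groups did not overlap, as in 12.9% of all genes. The difference was 0.22 (SE 0.07, limma adjusted p = 0.169 over all rows).

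Tap1 and Tap2 form the pump that carries peptides into the endoplasmic reticulum, and Tapbp, tapasin, holds class I molecules there for loading. Tap1 read 8.70, 8.97, 8.94 and 8.62 in wild-type and 9.16, 9.33, 8.60 and 9.23 in labelled-knockout replicates 1 to 4. Like H2-Ab1, it was above all wild-type arrays in labelled-knockout replicates 1, 2 and 4 and lowest of all in replicate 3. The difference was 0.27 (SE 0.15; limma adjusted p = 0.338), and 0.43 without replicate 3 (SE 0.10; limma adjusted p = 0.0648). Tap2 differed by 0.19 (95% interval -0.06 to 0.44) and Tapbp by 0.18 (-0.01 to 0.36), with overlapping groups; a second row of Tapbp gave 0.09.

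Psmb8, Psmb9 and Psmb10 are the catalytic subunits of the immunoproteasome, which cuts peptides for class I. Psmb10 averaged 9.96 ± 0.15 in wild-type and 9.63 ± 0.41 in labelled-knockout arrays (SD, n = 4 each), with 9.05 in labelled-knockout replicate 3. Psmb8 read 7.71, 7.74, 7.94 and 7.79 against 8.08, 7.68, 7.42 and 7.72. Psmb9 read 7.13, 7.28, 7.45 and 7.15 against 7.55, 7.39, 7.09 and 7.38. All 3 were lowest in labelled-knockout replicate 3, as most GTPases were. The differences of -0.33, -0.07 and 0.10 had 95% intervals of -0.73 to 0.07, -0.35 to 0.21 and -0.15 to 0.35. Without labelled-knockout replicate 3 they were -0.14, 0.03 and 0.19, and none was called. Nlrc5, the class I coactivator, read 8.02 to 8.33 in wild-type and 8.12 to 8.26 in labelled-knockout arrays, a difference of 0.05 (95% interval -0.14 to 0.24).

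Of 20 further class I genes 1 rose and none fell, against 1.56% called higher and 1.59% lower among all genes. H2-M3, a nonclassical molecule that presents formylated bacterial peptides, read 6.86, 6.73, 6.80 and 6.82 in wild-type and 7.01, 7.25, 7.09 and 7.27 in labelled-knockout arrays. Its difference of 0.35 (SE 0.08; limma adjusted p = 0.0428) lost the call without any array but labelled-knockout replicate 1 (limma adjusted p = 0.0522 to 0.123). H2-Q4 differed by 0.38 (limma adjusted p = 0.0871) and Mr1, which presents microbial vitamin B metabolites, by -0.59 (limma adjusted p = 0.0836). Both had groups apart, as 12.9% of all genes did. The median of the 20 was -0.04.

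**Figure D4:**
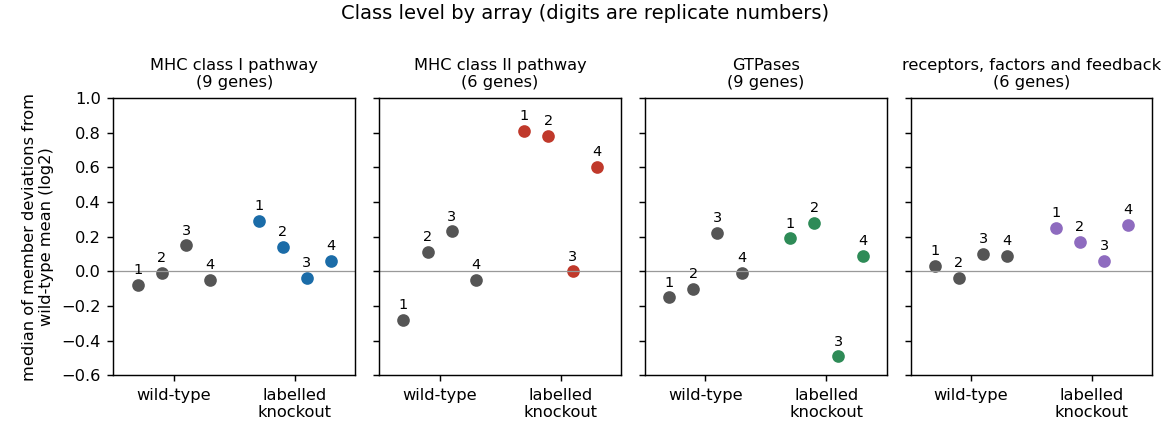
For each array, the median over a class of the log2 deviations of its members from their wild-type means; digits give replicate numbers and no error bar is drawn, since each point is 1 array. Labelled-knockout replicates 1, 2 and 4 lie at 0.60 to 0.81 for class II, while replicate 3 lies at 0.00 for class II and at -0.49 for the GTPases.

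Of the genes upstream and of feedback, Socs1 had the largest difference and the receptor chains small ones. Socs1, an interferon-induced inhibitor of the receptor's kinases, read 6.45, 6.40, 6.22 and 6.65 in wild-type and 7.17, 6.73, 7.02 and 7.67 in labelled-knockout replicates 1 to 4. All 4 labelled-knockout arrays were above all wild-type arrays, and replicate 3 did not stand apart. Its means of 6.43 ± 0.18 and 7.15 ± 0.39 (SD, n = 4 each) gave a difference of 0.72 (SE 0.18, 1.65-fold; limma adjusted p = 0.0584). Without labelled-knockout replicate 3 it was 0.76 (limma adjusted p = 0.0805), and without labelled-knockout replicate 2, its lowest, 0.86 (limma adjusted p = 0.0335). Socs1 and Ciita were the only 2 of the 30 members whose groups did not overlap, 6.67% against 12.9% of all genes. Socs1 is also induced by cytokines other than interferon gamma.

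Ifngr1 read 9.71, 9.66, 9.91 and 9.86 against 9.93, 9.82, 10.08 and 10.04, and Ifngr2 9.73, 9.70, 9.78 and 9.53 against 9.95, 9.67, 9.64 and 9.97. The differences were 0.18 (95% interval -0.01 to 0.37) and 0.12 (-0.10 to 0.34). Irf1, a transcription factor induced early by interferon gamma, read 8.18, 8.06, 8.26 and 8.06 against 8.49, 8.45, 7.59 and 8.24. It followed the GTPases, with the lowest value in labelled-knockout replicate 3 and the highest in replicate 1, and differed by 0.05 (95% interval -0.34 to 0.44), or by 0.25 without replicate 3 (limma adjusted p = 0.18).

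Irf8, a factor of macrophages and dendritic cells, read 7.56, 7.64, 7.79 and 7.79 against 7.93, 7.95, 7.70 and 8.22. The difference was 0.25 (SE 0.11; limma adjusted p = 0.22), but a second row of Irf8, with levels of 5.61 to 6.19, gave -0.10 (95% interval -0.40 to 0.20), so its rows disagree. Ido1, an interferon-induced enzyme of tryptophan breakdown, read 5.92 to 6.30 in wild-type and 6.17 to 6.26 in labelled-knockout arrays, with a difference of 0.06 (95% interval -0.13 to 0.26).

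The row of the cytokine itself lay low on the arrays. Ifng read 5.52 to 5.73 in wild-type and 5.69 to 5.76 in labelled-knockout arrays, below the array medians, with a difference of 0.06 (95% interval -0.10 to 0.22). Of 20 further genes of interferon-gamma signalling and its targets, none rose and Cxcl11 fell. Among all genes 1.56% were called higher and 1.59% lower. Cxcl11, a chemokine for T cells, read 7.46, 7.44, 7.61 and 7.48 in wild-type and 7.27, 7.06, 7.03 and 6.93 in labelled-knockout arrays, a difference of -0.42 (SE 0.09; limma adjusted p = 0.0317) that lost the call without any array but labelled-knockout replicate 1 (limma adjusted p = 0.0563 to 0.0943). Its relatives Cxcl9 and Cxcl10, which bind the same receptor, differed by 0.03 and 0.26 (limma adjusted p = 0.962 and 0.587) and were both lowest of the 8 arrays in labelled-knockout replicate 3, at 7.60 and 6.34; without it they differed by 0.35 and 0.51, not called. Il12rb1, a receptor chain for interleukin-12, differed by 0.24 (limma adjusted p = 0.069) and Socs3, an inhibitor of cytokine receptors, by 0.63 (limma adjusted p = 0.124). The median of the 20 was 0.06.

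Labelled-knockout replicate 3 also read low across type I interferon-stimulated genes, many of which share the response element. The median deviation of 22 such genes was 0.01, -0.18, -0.84 and -0.21 in labelled-knockout replicates 1 to 4 and -0.15 to 0.25 in wild-type arrays. Rsad2, an antiviral enzyme, averaged 8.14 in wild-type and 7.23 in labelled-knockout arrays, with groups apart. It fell by 0.91 (SE 0.10, limma adjusted p = 0.00587) and by 0.84 without replicate 3 (limma adjusted p = 0.00766). Rsad2 was the only 1 of the 22 to be called, against 1.59% of all genes called lower. Cmpk2, a nucleotide kinase next to Rsad2, differed by -0.99 (limma adjusted p = 0.0507) and Isg15, a ubiquitin-like protein, by -0.55 (limma adjusted p = 0.0626). The list median was -0.30, and -0.14 without replicate 3. Of the 22 differences 20 were below 0, while 56% of all genes were above 0. At an unadjusted p under 0.05, 9 lay lower and 1 higher, against 21.2% of all genes in either direction. Groups were apart in 6 of the 22, all lower, against 12.9% of all genes in either direction. Without replicate 3, 14 stayed below 0 and 7 lay lower at that level.

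The number of members called depended on labelled-knockout replicate 3. Since the members' own values singled out this array, the counts without it are descriptions. Without it limma called 4 of the 30 (H2-Ab1, H2-Eb1, H2-DMa and Gbp5), against 2.6% of all genes, and 12 lay at an unadjusted p under 0.05, all in the higher direction, against 17.5% of all genes and 9.19% in that direction. Differences were then above 0 for 28 of 30, against 54.8% of all genes. The class medians became 0.75 for class II, 0.22 for receptors, factors and feedback genes, 0.15 for GTPases and 0.11 for class I. The class II genes thus kept the largest median, while the GTPases other than Gbp5 lay between 0.00 and 0.30.

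**Figure D5:**
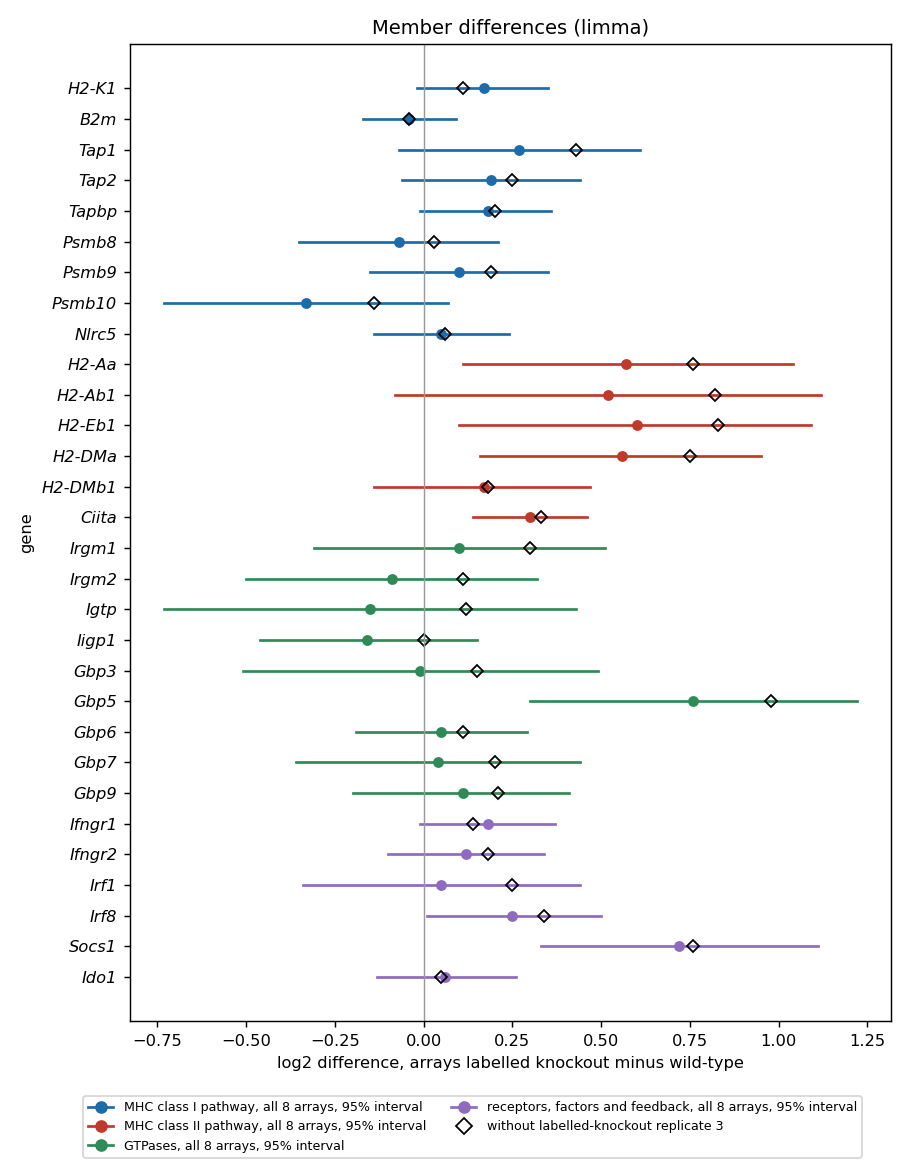
Log2 difference of each member, arrays labelled knockout minus wild-type (limma): filled points with 95% intervals from all 8 arrays, open diamonds without labelled-knockout replicate 3. The diamonds of the GTPases lie to the right of the points for all 9 genes, and the class II chains H2-Aa, H2-Ab1, H2-Eb1 and H2-DMa move to between 0.75 and 0.83.

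The arrays with Y-linked signal and those with Xist signal gave different pictures, though no member passed a test of the difference. In the arrays with Y-linked signal (2 against 2), limma called H2-DMa (0.95; adjusted p = 0.0244) and Gbp5 (1.16; adjusted p = 0.0375), against 0.771% of all genes, and 17 of 30 lay at an unadjusted p under 0.05, against 10.9%. Class medians there were 0.92 for class II, 0.48 for GTPases, 0.26 for receptors, factors and feedback genes and 0.15 for class I. In the arrays with Xist signal, which include labelled-knockout replicate 3, limma called no member, against 1.43% of genes, and 5 lay at an unadjusted p under 0.05, against 16.5%. The medians there were 0.18, -0.28, 0.16 and -0.05.

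The interaction term, the difference in Xist-signal arrays minus that in Y-linked-signal arrays, was called for no member by limma, and for 0.0271% of all genes. At an unadjusted p under 0.05 it held 9 of the 30, against 5.48% of genes, and 7 of these 9 were GTPases. It was below 0 for 26 of the 30 and for all 9 GTPases, against 49.6% of genes. Igtp had the lowest adjusted p, with a difference of -0.78 in Xist-signal arrays and 0.48 in Y-linked-signal arrays and a term of -1.26 (SE 0.28; limma adjusted p = 0.521). Without labelled-knockout replicate 4, replicate 3 is the lone labelled-knockout array with Xist signal, and the fit assumes that it varies as the others do. The term was then -1.57 for Igtp and -1.18 for Gbp7, both picked after their values were seen. Values of these same genes singled out replicate 3, so these terms are descriptions and no independent support. In labelled-knockout replicate 4, the other labelled-knockout array with Xist signal, the class deviations were 0.60 for class II and 0.09 for the GTPases.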

How the data were processed

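The deposited table holds log2 values that the authors made by robust multi-array average (RMA), which corrects background, quantile-normalizes and summarises probes; the submitters' processing notes name RMA and R 3.0.1, and the sources used here give no further settings. Of its 41345 rows, 23521 name 1 gene, 1814 several and 16010 none. Gene names come from the platform annotation, and 23328 of the rows with 1 gene matched RefSeq by gene number. The row with the highest mean over the 8 arrays stood for each of 22180 genes. Array medians lay between 6.09 and 6.22, correlations between arrays between 0.976 and 0.994, and no 2 arrays were identical. The number of arrays limits the precision.

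Genotypes were compared on the log2 values with limma 3.58.1 (lmFit and eBayes, R 4.3.3), 4 against 4 arrays, with Benjamini-Hochberg adjustment over all 22180 genes. The interaction with Xist or Y-linked signal was fitted across all arrays. The fit across genes was tested on simulated data. Named are every member, up to 3 genes of smallest p in each other list (interferon-gamma signalling, class I, class II, GTPases, type I interferon-stimulated genes, and markers of hepatocytes, macrophages, dendritic, B, T and NK cells, neutrophils and sinusoidal endothelium), and Il10, Ifng, Cxcl9, Cxcl10, Cxcl11, Xist and Ddx3y; others are said to be chosen later. Ddx3y was not analysed here, and an item of this rule is not reported here. The members and lists were chosen with earlier results of these data known. Alternatives were other filters, scalings, tests, blocks and array sets, and each array left out in turn. Figures were drawn with matplotlib 3.10.9.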

Additional observations from a re-analysis of the deposited data

Results flagged for a closer look

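In 4 members, 5 of 60 groups of 4 arrays held an array whose gap to its nearest neighbour was, as a share of the group's range, above Dixon's 95% critical value for 4 samples. That is 8.33% of the groups, against 5.32% over all genes, where chance alone flags about 1 in 20 groups. Psmb10 in wild-type replicate 3 read 10.18, while the other wild-type arrays lay between 9.87 and 9.90. Nlrc5 in wild-type replicate 3 read 8.33, above the other wild-type arrays at 8.02 to 8.05, and in labelled-knockout replicate 2 it read 8.26, above the others of that group at 8.12 to 8.13. Gbp9 in wild-type replicate 3 read 7.28, above the others at 6.81 to 6.87. Iigp1 in labelled-knockout replicate 3 read 10.68, below the others at 11.28 to 11.39. Wild-type replicate 3 was the high array in 3 of the 5 cases.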

How the results depend on the processing

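Of 597 member differences over 20 alternatives, 544 kept sign and side of the threshold, 16 in 6 members passed it, and 37 in 15 members turned sign, none of these with a limma adjusted p below 0.0924. In place of 0 members, limma called 2 with the lowest 40% of genes left out, 1 after quantile normalization, 1 after cyclic loess, 3 with array weights, 1 with Xist or Y-linked signal as a block, 2 in arrays with Y-linked signal alone, 3 at an adjusted p below 0.1, and 0 to 4 with each array left out (1 without labelled-knockout replicate 2, 4 without replicate 3). With every row of the table tested, an alternative chosen after seeing the data, it called 0. The replicate number as a block called 1, Socs1 (limma adjusted p = 0.0311); same-number correlations of 0.272, 0.0407, -0.1 and 0.291 do not pair the arrays, and 2 of 4 labelled-knockout arrays were most like their own number. With any array left out, the interaction rests on a lone array for 1 genotype in 1 array set, and its calls are not counted. The further pathway genes stand in lists of 20, 20, 13, 10 and 22 genes. Of them 8 were called, 0 without moderation, 3 in arrays with Xist signal and 18 at an adjusted p below 0.1. With each array left out, 3 (without wild-type replicate 2) to 14 (without labelled-knockout replicate 1) were called. Calls over all 22180 genes changed as well. They were 699 with all 8 arrays, 317 in arrays with Xist signal and 171 in those with Y-linked signal. With each array left out they ran from 207 (without wild-type replicate 1) to 1040 (without labelled-knockout replicate 1).

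Class medians moved to -0.05 (class I), 0.18 (class II) and -0.28 (GTPases) in arrays with Xist signal, and to 0.92 (class II), 0.48 (GTPases) and 0.26 (receptors, factors and feedback) in those with Y-linked signal. With each array left out they ran from 0.06 to 0.17 for class I, 0.40 to 0.75 for class II, -0.06 to 0.15 for GTPases and 0.12 to 0.22 for receptors, factors and feedback. In arrays with Xist signal the sign turned for Tap2 (-0.01), Psmb9 (-0.06), Nlrc5 (-0.05), Irgm1 (-0.28), Gbp7 (-0.41), Gbp9 (-0.17), Irf1 (-0.25), Cxcl9 (-0.53) and Cxcl10 (-0.35). In arrays with Y-linked signal it turned for Psmb8 (0.15), Psmb10 (0.02), Irgm2 (0.29), Igtp (0.48) and Gbp3 (0.55). Array weights gave 0.03 for Irgm2, 0.01 for Igtp, 0.09 for Gbp3 and -0.31 for Xist. A common median gave -0.00 for Nlrc5, Gbp6 and Irf1, -0.01 for Gbp7 and -0.02 for Cxcl9. Quantile normalization gave -0.01 for Ido1 and Ifng, and cyclic loess -0.01 for Ido1 and -0.02 for Ifng. With each array left out, signs turned within -0.19 to 0.03 for Psmb8, -0.01 to 0.30 for Irgm1, -0.22 to 0.11 for Irgm2, -0.35 to 0.12 for Igtp, -0.23 to 0.00 for Iigp1, -0.15 to 0.19 for Gbp3, -0.03 to 0.11 for Gbp6, -0.06 to 0.20 for Gbp7, -0.05 to 0.25 for Irf1, -0.01 to 0.11 for Ido1, -0.13 to 0.35 for Cxcl9 and -0.78 to 1.31 for Xist. The cause was not tested for any of these. Rows low on the arrays, such as those of Gbp6, H2-DMb1 and Ifng, come with no detection call, which limits what a small difference there can show.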
